A study of Mus musculus with 18 samples.

Results

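MAP kinase phosphatases of the dual-specificity family, Sprouty proteins and the Sprouty-related protein Spred1 are negative feedback regulators of signalling from receptors to MAP kinases. Of the 46078 genes in the deposited count tables, 10 were taken by name: Dusp1, Dusp2, Dusp4, Dusp5, Dusp6, Dusp10, Dusp16, Spry1, Spry2 and Spred1. They were measured by bulk RNA sequencing of regulatory T cells (Tregs) sorted from male Foxp3(DTR/GFP) mice aged 10 weeks. All mice of every group carried this allele, which marks Foxp3-expressing cells with GFP and makes them sensitive to diphtheria toxin. Tregs came from bone with a cranial defect, from quadriceps muscle after volumetric muscle loss, from skin with full-thickness punch wounds, and from heart after myocardial infarction by ligation of the left coronary artery. Each of these tissues was taken at day 7 and gave 3 libraries, each pooled from 3 mice, against 6 libraries of Tregs from spleens of uninjured mice. Neither uninjured tissue nor spleen of injured mice is among these groups, so injury and tissue of residence cannot be told apart.

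A MAP kinase is switched on when a kinase adds phosphate to a threonine and a tyrosine of its activation loop, and a dual-specificity phosphatase removes both. Many of these phosphatase genes are themselves induced by the pathway they restrain, which makes them feedback regulators. Dusp1, Dusp2, Dusp4 and Dusp5 encode phosphatases that act in the nucleus, Dusp6 encodes a cytoplasmic phosphatase that prefers ERK, and the products of Dusp10 and Dusp16 prefer the stress-activated kinases JNK and p38. Sprouty proteins act further upstream, between receptors and Raf, and Spred1 brings the Ras inactivator neurofibromin to the membrane. In T cells ERK is activated through the antigen receptor.

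Heart libraries held 11139361 to 12974890 counts, skin libraries 8375212 to 11907745, muscle libraries 11582403 to 13358526, bone libraries 11588253 to 22635760 and spleen libraries 5970346 to 15756884. Levels are given as CPM, counts relative to library size, scaled by TMM over all 18 libraries. Foxp3, the defining transcription factor of Tregs, was present in every library, at 752 ± 17.4 CPM in bone, 711 ± 108 in muscle, 789.8 ± 63.2 in skin, 694 ± 62.8 in heart and 405 ± 39.8 in spleen (SD, n = 3 for each tissue and 6 for spleen). The column names came in 2 styles, Endo and Tregs. Spleen replicates 1 to 3, all skin libraries and heart replicate 1 carried the Endo style, and the other 11 libraries carried the Tregs style. Spleen levels of several members moved with this style: Dusp1 lay between 175 and 374 CPM in Endo-style spleen and between 459.9 and 538 CPM in Tregs-style spleen. The style was a term of the model, so that skin is in effect set against spleen replicates 1 to 3, and bone and muscle against replicates 4 to 6. Ribosomal RNA genes took 1.48 to 3.24% of counts in the tissues and 3.1 to 6.76% in spleen, and the part of this in the results was examined by leaving out these genes and by leaving out the spleen replicates richest in them, 1 and 2.

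2 members carried a match to a searched motif in the promoter window, which ran from 250 bases before to 50 bases after the annotated start. They are shown because the motifs are classic response elements. Dusp1 rose in muscle, skin and heart and Dusp5 in all 4 tissues, and a link between motif and level was not tested. Promoters of 9 of the 10 genes were matched in RefSeq sequences of GRCm38.p6, and Dusp4 had no entry. The Dusp1 window lies inside the longer span given for this gene below, which has its 5′ end at 26562128. In the lines that follow, capitals mark the motif and the sequence reads 5′ to 3′ on the strand of the gene.
Dusp1, chr17:26508423-26508722, minus strand, capitals mark a cyclic AMP response element: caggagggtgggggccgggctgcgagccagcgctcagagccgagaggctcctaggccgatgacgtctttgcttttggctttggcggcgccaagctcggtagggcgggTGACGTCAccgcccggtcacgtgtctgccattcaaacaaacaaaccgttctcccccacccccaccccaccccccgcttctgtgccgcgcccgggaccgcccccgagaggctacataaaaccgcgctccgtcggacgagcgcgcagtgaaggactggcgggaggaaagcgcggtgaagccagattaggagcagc
Dusp5, chr19:53528895-53529194, plus strand, capitals mark a pair of adjacent CArG boxes: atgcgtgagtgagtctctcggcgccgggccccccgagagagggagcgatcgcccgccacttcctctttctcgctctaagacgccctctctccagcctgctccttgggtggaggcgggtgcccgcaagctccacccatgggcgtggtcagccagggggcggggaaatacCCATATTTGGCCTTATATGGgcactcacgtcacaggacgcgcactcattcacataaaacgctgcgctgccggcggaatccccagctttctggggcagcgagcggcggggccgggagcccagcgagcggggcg

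The element in the Dusp1 window, TGACGTCA, began at position -143 relative to the start. The CArG boxes of Dusp5, the core that serum response factor binds, began at -82 and -72. Of 32851 promoter windows of the same length, 1.79% held TGACGTCA and 1.63% held a CArG box. The search, on both strands except for the TATA box, also covered the AP-1 site TGANTCA (in 7.81% of windows), the ETS site CCGGAAGT (3.89%), the kappaB site (8.46%) and the TATA box TATAAA (8.32%). No searched motif stood in the windows of the other 7 genes, which says only that these letters are not in those windows.

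The members split into a group that was higher in the injured tissues and a group that was lower. Dusp4, Dusp5 and Dusp16 rose in all 4 tissues, Dusp1 and Dusp10 rose in muscle, skin and heart, and Spred1 and Dusp6 fell in all 4. In bone 3 of 10 members rose and 2 fell, where 14.8% of the 15617 genes tested passed, 8.48% higher and 6.32% lower. In muscle 5 rose and 3 fell, where 25.5% of genes passed, 14.2% higher and 11.3% lower. In skin 5 rose and 4 fell, where 27.8% of genes passed, 15% higher and 12.8% lower. In heart 5 rose and 3 fell of the 9 members that passed the low-count filter, where 20.3% of 15025 genes passed, 11.8% higher and 8.46% lower. Spry2 did not pass that filter in heart. In such bulk samples fewer cells of a type and less RNA per cell cannot be told apart. The median log2 fold change of the members tested was 0.19 in bone, 0.76 in heart, 0.68 in muscle and 1.46 in skin, where the median over all genes tested was 0.01 in bone, -0.03 in heart, -0.01 in muscle and -0.07 in skin. The spleen libraries are shared by these comparisons, which are therefore not independent of each other. Tests are edgeR's robust quasi-likelihood F test with Benjamini-Hochberg adjustment over all genes tested, and a gene is said to rise or fall at an adjusted p under 0.05.

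**Figure D1:**
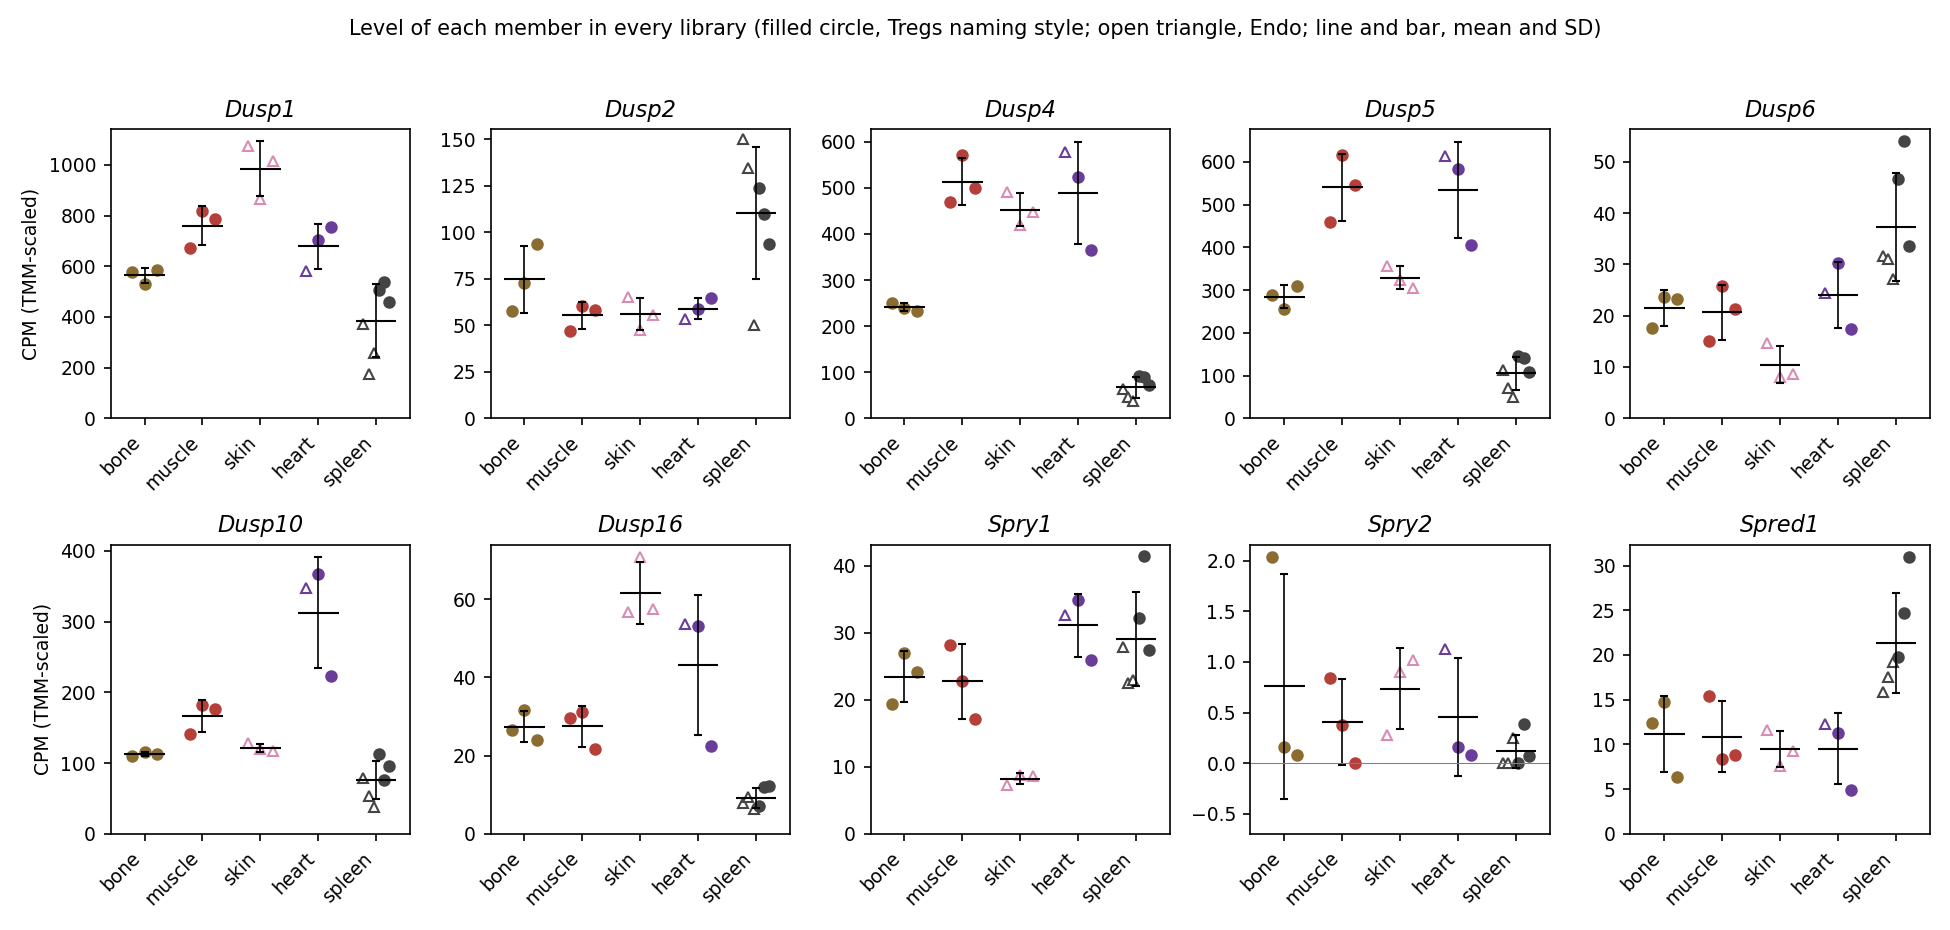
Level of each gene (CPM, linear axis) in every library of bone, muscle, skin, heart and spleen, with a line at the mean, a bar of 1 SD, circles for the Tregs naming style and triangles for the Endo style. Dusp4, Dusp5 and Dusp16 lie above all spleen libraries in every library of the 4 tissues, and Spred1 lies below all of them.

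Dusp4 (ENSMUSG00000031530, chromosome 8, 34807297 to 34819894, plus strand), whose product dephosphorylates ERK, JNK and p38 in the nucleus, showed the highest fold of the 3 members that rose in each of the 4 tissues. It stood at 251, 240.3 and 233 CPM in bone, 470.3, 571 and 499.6 CPM in muscle, 490.3, 419 and 448 CPM in skin and 578, 523 and 364 CPM in heart, where spleen ranged from 38.1 to 92.6 CPM with a median of 67.5. No tissue library overlapped spleen, and bone was the lowest tissue. The log2 fold change against spleen was 1.495 (SE 0.156, adjusted p = 4.01e-07) in bone and 2.59 (SE 0.162, adjusted p = 6.49e-11) in muscle. It was 3.18 (SE 0.168, adjusted p = 2.53e-12) in skin and 2.87 (SE 0.227, adjusted p = 1.51e-06) in heart. Within the naming styles, heart over spleen was 3.55 on the log2 scale for the Endo-style heart library and 2.39 for the others, given without a test.

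Dusp5 (ENSMUSG00000034765, chromosome 19, 53529109 to 53542431, plus strand), which encodes a nuclear phosphatase specific for ERK, followed Dusp4 closely. Its level was 288, 255 and 309 CPM in bone, 459.8, 616 and 547 CPM in muscle, 357, 325 and 305 CPM in skin and 614.5, 582 and 405.5 CPM in heart. Spleen ranged from 50.6 to 145 CPM with a median of 110.5, below every tissue library. The log2 fold change was 1.09 (SE 0.202, adjusted p = 0.000588) in bone and 2.02 (SE 0.207, adjusted p = 2.29e-07) in muscle. It was 2.05 (SE 0.210, adjusted p = 1.56e-07) in skin and 2.34 (SE 0.259, adjusted p = 6.06e-05) in heart. Without spleen replicates 1 and 2 the skin value was 2.72. There replicate 3, the lowest spleen library at 50.6 CPM, was the only Endo-style spleen library left. Without the naming style in the model the skin value was 1.62 (adjusted p = 3.36e-05) and the muscle value 2.34 (adjusted p = 6.35e-07). An antisense gene, AC137853.2, overlaps the first exon of Dusp5, and a TEC gene, Gm42922, overlaps an exon of Spry1. Ergic1 on the opposite strand overlaps an exon span of Dusp1. The strand setting of the counting is not given in the sources used here, so reads of these pairs cannot be told apart.

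Dusp1 (ENSMUSG00000024190, chromosome 17, 26505590 to 26562128, minus strand), an immediate early gene whose nuclear phosphatase acts on p38, JNK and ERK, was the most abundant member in CPM. It reached 578.6, 531 and 586 CPM in bone, 672, 819.5 and 786 CPM in muscle, 1076, 864 and 1017 CPM in skin and 581, 702 and 755 CPM in heart, against a spleen range of 175 to 538 CPM and a median of 417. Skin was the highest tissue, and the bone library at 531 CPM lay inside the spleen range. For Dusp1 the log2 fold change was 1.85 in skin (SE 0.188, adjusted p = 7.39e-08), 0.76 in heart (SE 0.201, adjusted p = 0.0155), 0.58 in muscle (SE 0.182, adjusted p = 0.021) and 0.15 in bone (SE 0.182, adjusted p = 0.656). The muscle call was lost without muscle replicate 2 or 3 or without spleen replicate 4 or 6, with adjusted p of 0.0776, 0.0633, 0.0517 and 0.0728. The heart call was lost without heart replicate 1, at a log2 fold change of 0.54 and an adjusted p of 0.15, and without the naming style in the model (0.81, adjusted p = 0.0684).

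Dusp2 (ENSMUSG00000027368, chromosome 2, 127336159 to 127338376, plus strand), which encodes a nuclear phosphatase of activated lymphocytes, went the other way. It stood at 57.7, 72.6 and 93.8 CPM in bone, 47.1, 60.4 and 58.4 CPM in muscle, 65.1, 47.6 and 55.2 CPM in skin and 53.4, 58.5 and 64.6 CPM in heart. Spleen replicate 3, at 49.97 CPM, fell inside the range of the tissues, and the other 5 spleen libraries lay between 93.4 and 150.2 CPM. The lowest of these 5, replicate 6, lay just below the bone library at 93.8 CPM. Against spleen the log2 fold change was -0.997 in muscle (adjusted p = 0.0258), -1.01 in skin (adjusted p = 0.0235), -0.92 in heart (adjusted p = 0.0388) and -0.57 in bone (adjusted p = 0.246). These calls rest on few libraries: the muscle call was lost without any 1 of the 3 muscle libraries (adjusted p 0.0547 to 0.0978) or without spleen replicate 4 or 5 (0.0826 and 0.0644), the heart call without any 1 of the heart libraries (0.0965 to 0.182) or without spleen replicate 2, 4 or 5 (0.0637, 0.0778 and 0.07), and the skin call without skin replicate 2 or 3 (0.0933 and 0.0912) or spleen replicate 1 or 2 (0.125 and 0.112). Without both spleen replicates 1 and 2, where spleen replicate 3 alone carries the Endo style, skin stood 0.18 higher on the log2 scale with an adjusted p of 0.729, and bone passed without spleen replicate 3, at -0.57 with an adjusted p of 0.0171.

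Dusp6 (ENSMUSG00000019960, chromosome 10, 99263231 to 99267489, plus strand), which encodes the cytoplasmic ERK phosphatase, fell in all 4 tissues. Its level was 17.6, 23.7 and 23.2 CPM in bone, 15.1, 25.7 and 21.3 CPM in muscle, 14.7, 8.13 and 8.55 CPM in skin and 24.4, 30.2 and 17.5 CPM in heart, against 27.1 to 53.98 CPM in spleen with a median of 32.6. Skin was the lowest tissue, and of the 4 tissues heart alone overlapped spleen. The log2 fold change was -1.53 in skin (SE 0.259, adjusted p = 8.14e-05), -1.13 in muscle (SE 0.245, adjusted p = 0.00139), -1.08 in bone (SE 0.244, adjusted p = 0.00305) and -0.67 in heart (SE 0.225, adjusted p = 0.0491). The heart call was lost without heart replicate 2 or 3 or without spleen replicate 1, 2, 4 or 5, with adjusted p from 0.0691 to 0.19.

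Dusp16 (ENSMUSG00000030203, chromosome 6, 134715468 to 134792625, minus strand), whose product prefers JNK and p38, was a low-level gene with a large fold. It stood at 26.4, 31.7 and 24.0 CPM in bone, 29.6, 31.2 and 21.6 CPM in muscle, 56.6, 70.7 and 57.5 CPM in skin and 53.6, 53.2 and 22.4 CPM in heart, where spleen ranged from 6.45 to 12.4 CPM with a median of 8.66. Every tissue library lay above spleen, and heart replicate 3 was the lowest of its group. Over spleen it was 2.94 on the log2 scale in skin (SE 0.247, adjusted p = 3.4e-09), 2.21 in heart (SE 0.285, adjusted p = 9.11e-05), 1.37 in muscle (SE 0.227, adjusted p = 7.76e-05) and 1.36 in bone (SE 0.226, adjusted p = 0.000129).

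Dusp10 (ENSMUSG00000039384, chromosome 1, 184013302 to 184075636, plus strand), which encodes another JNK and p38 phosphatase and limits cytokine production in T cells of mice, was highest in heart. It reached 348, 367 and 223 CPM in heart, 140.9, 182 and 176 CPM in muscle, 128, 119.7 and 117 CPM in skin and 109.7, 116 and 112.5 CPM in bone, against 38.7 to 113 CPM in spleen with a median of 77.8. Bone reached the spleen range and the other tissues did not. Its log2 fold change was 2.02 in heart (SE 0.254, adjusted p = 0.000149), 1.06 in skin (SE 0.193, adjusted p = 0.000188), 0.79 in muscle (SE 0.188, adjusted p = 0.00321) and 0.22 in bone (SE 0.187, adjusted p = 0.492). Without spleen replicates 1 and 2 the skin value was 1.67. There replicate 3, the lowest spleen library at 38.7 CPM, was the only Endo-style spleen library left. Without the naming style in the model the skin value was 0.65 (adjusted p = 0.033) and the muscle value 1.10 (adjusted p = 0.000902).

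Spry1 (ENSMUSG00000037211, chromosome 3, 37639947 to 37644598, plus strand), an inhibitor of signalling from receptors to Ras, fell in skin. It stood at 7.29, 8.81 and 8.68 CPM in skin, 19.3, 26.9 and 24.1 CPM in bone, 28.2, 22.9 and 17.1 CPM in muscle and 32.6, 34.8 and 25.9 CPM in heart, where spleen ranged from 22.5 to 41.4 CPM with a median of 27.6. Skin lay below all other libraries and the other tissues overlapped spleen. The log2 fold change was -1.59 in skin (SE 0.237, adjusted p = 1.67e-05), and it did not pass in muscle (-0.59, adjusted p = 0.0528), bone (-0.54, adjusted p = 0.101) or heart (0.07, adjusted p = 0.848). In muscle it passed without muscle replicate 1, at -0.76 with an adjusted p of 0.0259, and without spleen replicate 6, at -0.70 with an adjusted p of 0.035.

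Spry2 (ENSMUSG00000022114, chromosome 14, 105891947 to 105896819, minus strand), another Sprouty gene of the same role, was near the limit of detection. Its counts summed to 54 over the bone libraries, 15 over muscle, 19 over skin, 15 over heart and 9 over the 6 spleen libraries. Bone replicate 1 alone reached 2.04 CPM, and no other library exceeded 1.13 CPM. No comparison of Spry2 passed, and at this depth a change of this gene was not detectable.

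Spred1 (ENSMUSG00000027351, chromosome 2, 117121374 to 117182279, plus strand) fell in all 4 tissues by a similar amount. It stood at 12.4, 14.8 and 6.41 CPM in bone, 15.4, 8.37 and 8.86 CPM in muscle, 11.6, 7.57 and 9.31 CPM in skin and 12.3, 11.3 and 4.96 CPM in heart, against 15.9 to 31.01 CPM in spleen with a median of 19.5. All tissue libraries lay below all spleen libraries. The log2 fold change was -1.18 in bone (SE 0.300, adjusted p = 0.00816), -1.23 in muscle (SE 0.303, adjusted p = 0.00393), -0.91 in skin (SE 0.312, adjusted p = 0.0326) and -1.18 in heart (SE 0.309, adjusted p = 0.015). The bone call was lost without spleen replicate 6 (adjusted p = 0.0522) and the skin call without skin replicate 2 or 3 or spleen replicate 1, 2, 3 or 5 (0.0516 to 0.136).

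**Figure D2:**
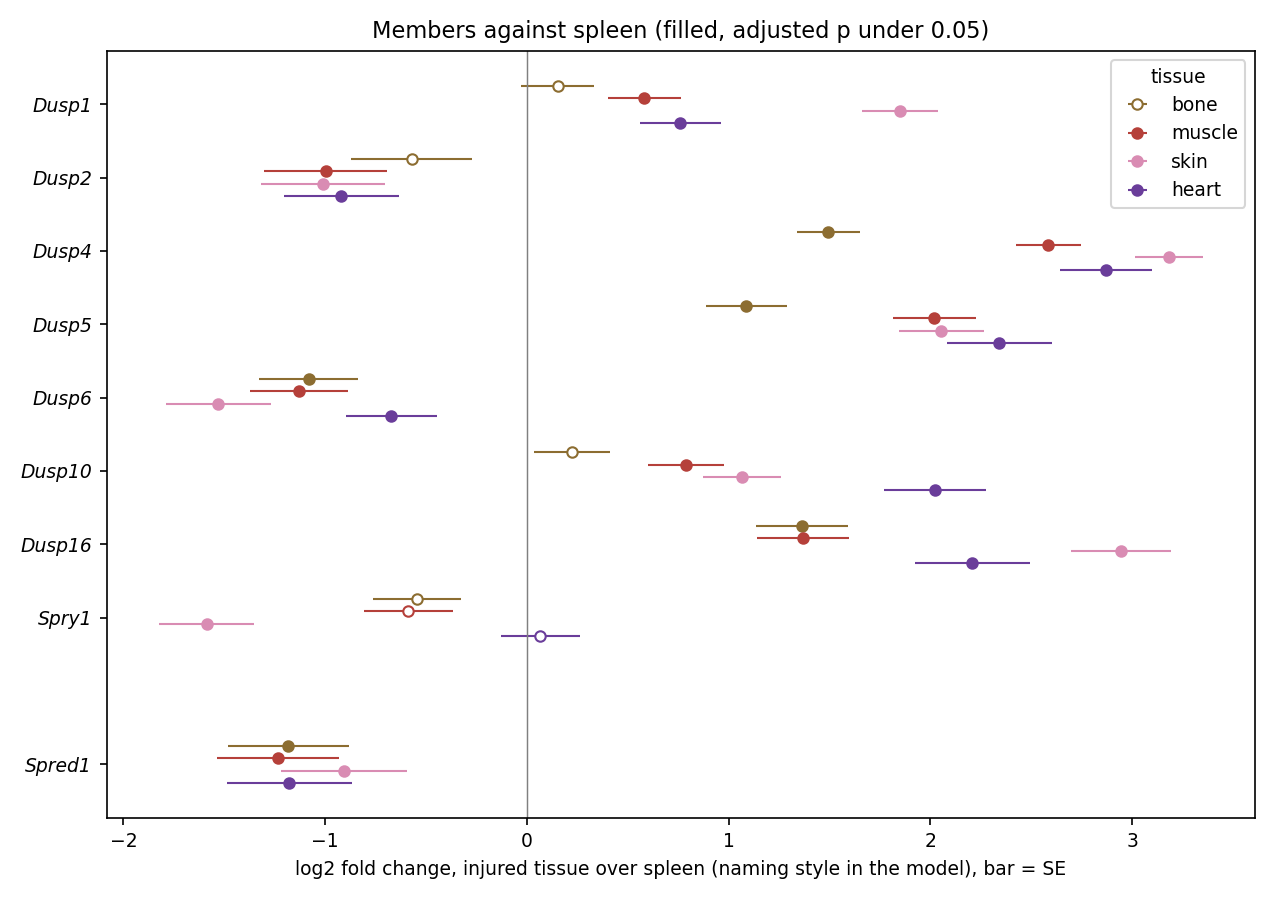
Log2 fold change of each gene in bone, muscle, skin and heart over spleen with its SE, Spry2 left out because of its few counts. Filled points passed at an adjusted p under 0.05, and Dusp4 reaches 3.18 in skin.

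The tissues were then compared with each other. In muscle against bone 2 of 10 members rose and none fell, where 4.86% of genes passed, 2.29% higher and 2.57% lower. In skin against bone 4 rose and 1 fell, where 8.11% of genes passed, 4.55% higher and 3.56% lower. In skin against muscle 2 rose and none fell, where 1.31% passed, 0.692% higher and 0.621% lower. In heart against bone 3 rose and none fell, where 6.68% passed, 4.02% higher and 2.66% lower. In heart against skin 2 rose and 1 fell, where 2.38% passed, 1.49% higher and 0.892% lower. In heart against muscle none of 10 passed in edgeR, where 0.452% of genes passed, 0.358% higher and 0.0942% lower. Dusp10 had an unadjusted p of 0.000486 in heart against muscle, and DESeq2 called 1 member there.

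Bone had less Dusp4 and Dusp5 than the other tissues. Dusp4 was higher in muscle than in bone by 1.09 on the log2 scale (SE 0.154, adjusted p = 0.000259), in skin than in bone by 1.69 (SE 0.220, adjusted p = 5.5e-05) and in heart than in bone by 1.18 (SE 0.231, adjusted p = 0.00386). Without the naming style the Dusp4 value for skin against bone was 0.91 (adjusted p = 0.0114). Dusp5 was higher in muscle than in bone by 0.93 (adjusted p = 0.00977), in skin than in bone by 0.97 (adjusted p = 0.04) and in heart than in bone by 1.08 (adjusted p = 0.0233). Without the naming style in the model the Dusp5 value for skin against bone was 0.21 (adjusted p = 0.65), and skin and bone overlapped in CPM, at 305 to 357 in skin and 255 to 309 in bone. The Dusp5 values of muscle against bone (0.93, adjusted p = 0.0834) and heart against bone (0.91, adjusted p = 0.0596) did not pass there either. They were also lost without single libraries: muscle against bone without bone library b (adjusted p = 0.0618), and the other pairs without any 1 of the bone libraries (0.0522 to 0.103), while heart against bone was lost without heart replicate 2 too (0.0768) and skin against bone without skin replicate 1 or 2, muscle replicate 3 or spleen replicate 2, 4 or 5 (0.0521 to 0.0989).

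Skin had more Dusp16 than bone, by 1.58 on the log2 scale (SE 0.327, adjusted p = 0.004), and more than muscle, by 1.58 (SE 0.328, adjusted p = 0.0146), and the call against muscle was lost without skin replicate 2 (adjusted p = 0.0585), under limma-voom (0.122) and in 1 fit of all 18 libraries (0.127). Skin had more Dusp1 than bone by 1.70 (adjusted p = 0.000282) and than muscle by 1.27 (adjusted p = 0.0131), and heart had less Dusp1 than skin by a log2 fold change of -1.01 (adjusted p = 0.01). Without the naming style these Dusp1 values were 0.80, 0.37 and -0.54, with adjusted p of 0.0677, 0.53 and 0.323. Heart had more Spry1 than skin by 1.74 (SE 0.267, adjusted p = 0.000399), and skin had less Spry1 than bone, at -1.04 (adjusted p = 0.0463). Skin against muscle for Spry1 did not pass, at -0.999 (adjusted p = 0.148), with no overlap between the groups, and passed without the naming style, at -1.46 (adjusted p = 0.00186).

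Heart had more Dusp10 than bone by 1.64 (SE 0.261, adjusted p = 0.00135) and than skin by 1.12 (SE 0.268, adjusted p = 0.0275). In heart against muscle Dusp10 did not pass, at 1.07 (95% interval 0.57 to 1.58, adjusted p = 0.0735), and it passed without heart replicate 3 (1.40, adjusted p = 0.00621) or spleen replicate 3 (1.00, adjusted p = 0.0292). Heart against skin for Dusp10 was lost without any 1 of the skin libraries (0.0898 to 0.107) or heart replicate 1 or 2 (0.507 and 0.0556). Skin against bone for Spry1 was lost without bone library b or c, muscle replicate 2, any 1 of the skin libraries or spleen replicate 1, 2, 4 or 6 (0.0527 to 0.126).

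Dusp6 did not pass between tissues with naming style in the model, where skin against bone was -0.45 (95% interval -1.14 to 0.24) and heart against skin was 0.94 (95% interval 0.34 to 1.54, adjusted p = 0.113). Without the style these were -1.03 (adjusted p = 0.016) and 1.19 (adjusted p = 0.017). Heart against skin for Dusp6 also passed without skin replicate 1 (1.28, adjusted p = 0.0497) or heart replicate 3 (1.11, adjusted p = 0.0354). The tests that set skin against bone or muscle rest on the difference between the Endo and Tregs styles in spleen, the only group of the first table that holds both.

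**Figure D3:**
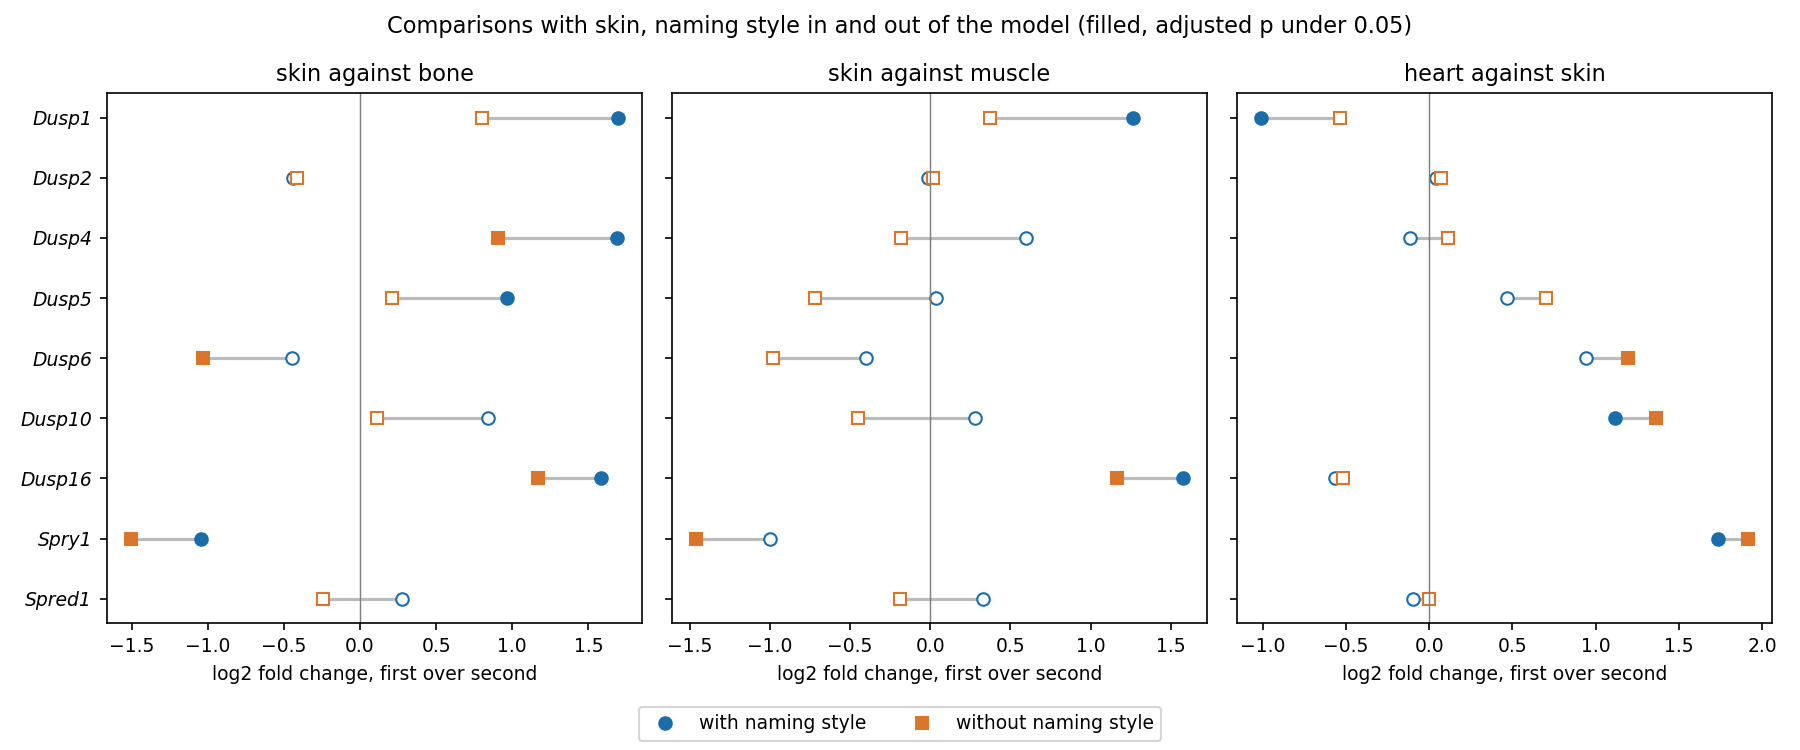
Log2 fold change of each gene in skin against bone, skin against muscle and heart against skin, with the naming style in the model (circles) and without it (squares), filled where the adjusted p was under 0.05. Dusp1 in skin against bone moves between 1.70 with the style and 0.80 without it.

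Levels of different genes are compared per kilobase of exon. On this scale Dusp1 led in bone (171 ± 8.94 CPM per kb), muscle (229 ± 23.4), skin (298 ± 33.1) and spleen (116 ± 43.4), while in heart Dusp5 (216 ± 45.5) and Dusp1 (205 ± 27.0) differed by less than their spread. Dusp4 ranked 3 of the 10 genes in bone, muscle and heart and 2 in skin, where it stood at 165 ± 13.03, but 5 in spleen, at 24.4 ± 8.03. Dusp2 ranked 5 in skin (28.0 ± 4.37) but 2 in spleen (55.1 ± 17.7). Spry2 came last in each group, at most at 0.363 CPM per kb on average.

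Across the 18 libraries the log2 CPM of Dusp4 and Dusp5 correlated at a Pearson r of 0.97, Dusp4 and Dusp16 at 0.90, Dusp5 and Dusp10 at 0.89, and Dusp6 and Spry1 at 0.81. The lowest r was -0.71, between Dusp6 and Dusp16. These are descriptions over libraries that share groups, depth and naming style. By the same measure over 8372 genes, those most like Dusp4 were Ets2 (r 0.99), Odc1 (0.99) and Ubl3 (0.98), and those most like Dusp5 were Nr4a1 (0.98), Bhlhe40 (0.98) and Nfkbid (0.97). For Dusp1 they were Gadd45b (0.94), Junb and Coq10b, for Dusp10 Skil (0.93), Sh2d2a and Zcchc9, and for Dusp16 Fth1 (0.96), N4bp1 and Ttc39c. For the genes that fell they were Dgka (0.91), Ncoa3 and Ccdc64 for Dusp6, Sp110 (0.91), Znf512b and Gimap4 for Spry1, Eif4ebp2 (0.89), Pdk1 and Fam189b for Dusp2, and Zfp7 (0.85), Usp6nl and Map4k3 for Spred1.

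**Figure D4:**
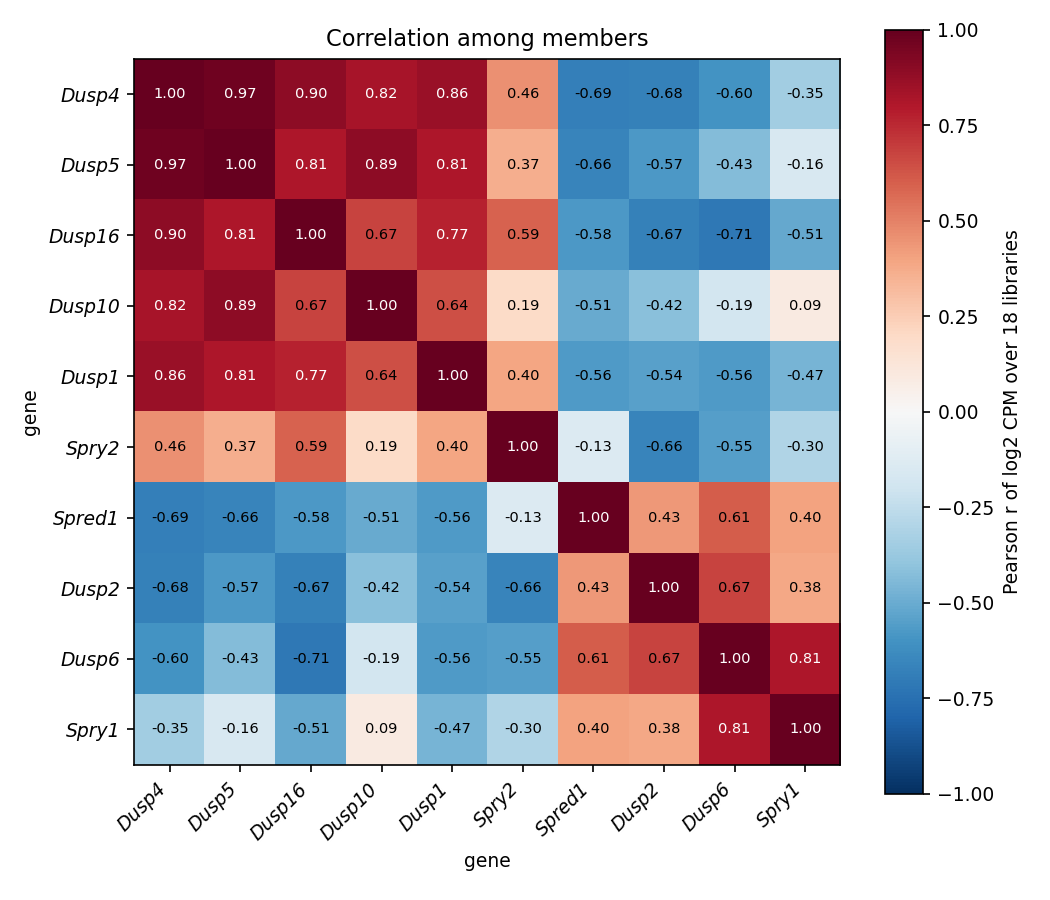
Pearson r between the log2 CPM of each pair of genes over 18 libraries. Dusp4, Dusp5, Dusp16, Dusp10 and Dusp1 correlate positively with each other, up to 0.97, and Dusp6 with Spry1 at 0.81.

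Relatives outside the 10 genes were looked at from a fixed list. Dusp8, which encodes a JNK and p38 phosphatase, rose in all 4 tissues, averaging 5.92 CPM in bone, 4.96 in heart, 6.73 in muscle and 6.83 in skin, against 0.557 CPM in spleen (adjusted p = 0.00403 in bone, 0.00547 in heart, 0.00138 in muscle and 1.01e-05 in skin). Dusp7, which encodes a cytoplasmic ERK phosphatase, fell in heart (log2 fold change -0.77, adjusted p = 0.0151) and did not pass in bone, muscle or skin. Dusp9, Spred2 and Spred3 passed in no tissue, Spry3 had a count of 0 in every library and Spry4 at most 8 counts. The atypical phosphatases lack the MAP kinase binding domain. Of 9 tested, 3 rose in bone, muscle and skin and 2 in heart, while 1 fell in skin. The share of this list that passed was 33.3% for bone and muscle, 44.4% for skin and 22.2% for heart. Over all genes the share was 14.8% for bone, 20.3% for heart, 25.5% for muscle and 27.8% for skin. Dusp14 averaged 29.8 CPM in bone, 32.8 in heart, 47.1 in muscle and 42.0 in skin, against 3.53 CPM in spleen, with a log2 fold change of 2.71 in bone (adjusted p = 1.09e-06), 3.09 in heart (1.08e-05), 3.37 in muscle (2.63e-08) and 3.99 in skin (7.25e-09). Dusp3 rose in all 4 tissues, by 1.964 in bone and 3.18 in skin on the log2 scale, and Dusp18 rose in bone, muscle and skin.

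Of 24 genes of the kinase cascade itself, 3 rose and none fell in bone, 4 rose and 2 fell in muscle, 4 rose and 1 fell in skin and 2 rose in heart. That is 12.5% of the list for bone, 8.33% for heart, 25% for muscle and 20.8% for skin, below the share of all genes called in each comparison (14.8, 20.3, 25.5 and 27.8%). Map2k3, a kinase of p38, averaged 92.9 CPM in bone, 118 in heart, 131 in muscle and 156.5 in skin, against 32.5 CPM in spleen, with log2 fold changes between 1.51 in bone and 2.23 in skin (adjusted p at most 6.79e-06). Map2k1, a kinase of ERK, rose by 0.53 to 0.85, and Mapk3, which encodes ERK, rose in muscle and skin. Of 17 genes that feed Ras, 1 rose and 2 fell in bone, 3 and 4 in muscle, 2 and 3 in skin and 1 and 3 in heart, or 17.6, 41.2, 29.4 and 23.5% of the list. In the same order 14.8, 25.5, 27.8 and 20.3% of all genes passed. Grb2 rose in each tissue (0.42 to 0.99), while Rasgrp2, an activator of the small GTPase Rap, fell in each (-0.93 to -1.55). Of 15 other inhibitors of Ras and ERK, 1 rose and 2 fell in bone, 3 and 2 in muscle, 4 and 3 in skin and 2 and 3 in heart, or 20, 33.3, 46.7 and 33.3% of the list, beside the same shares of all genes. Errfi1, an inhibitor of the EGF receptor, rose in each tissue (1.43 to 2.81), and the phosphatase gene Ptpn6 and the Ras inactivator Rasa2 fell in each (-0.69 to -1.11 and -0.57 to -0.85).

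Of ERK-responsive genes, 7 of 19 tested rose and 2 fell in bone, 6 and 3 in muscle and skin, and in heart 7 rose and 3 fell of 18. These are 47.4% of the list in bone, muscle and skin and 55.6% in heart, beside 14.8, 25.5, 27.8 and 20.3% of all genes. Nr4a1, an immediate early gene of antigen receptor signalling, averaged 671 CPM in bone, 1090 in heart, 1175 in muscle and 766 in skin, against 172 CPM in spleen, and Fosl2 rose by 2.53 to 4.63 on the log2 scale. Egr2 fell in bone, muscle and skin (-1.16, -1.97 and -2.61) and did not pass in heart (-0.72, adjusted p = 0.0996), and Myc fell in bone, muscle and heart. Summed CPM of this list was 3480 to 3870 in bone, 4370 to 5120 in heart, 3710 to 5390 in muscle and 3390 to 4190 in skin, against 1020 to 2610 in spleen.

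Dusp1 and several ERK-responsive genes are also induced by tissue dissociation, so genes of heat shock and handling were measured beside them. Of 13, 2 rose and 2 fell in bone, 3 and 2 in muscle, 5 and 2 in skin, and 4 rose and none fell in heart, or 30.8, 38.5, 53.8 and 30.8% of the list, beside 14.8, 25.5, 27.8 and 20.3% of all genes. Atf3 and Gadd45b rose in all 4 tissues, Gadd45b by 1.01 in bone, 2.00 in heart, 1.84 in muscle and 3.16 in skin. Klf6 rose in all but bone. Rhob fell in bone, muscle and skin (-0.82, -1.51 and -1.10), and Hspe1 fell in bone and muscle (-1.48 and -1.45). The median log2 fold change of the list was negative for bone (-0.651) and muscle (-0.681). It was positive for heart (0.458) and skin (0.424). The 13 genes summed to 1900 to 2190 CPM in bone, 2170 to 2900 in heart, 2130 to 2220 in muscle and 2460 to 2700 in skin. In spleen they summed to 1060 to 2900 CPM. The part of handling in the members' differences was not tested. Markers of other cells were also measured. The summed CPM of 8 macrophage genes was at most 30.4 in bone, 70 in heart, 20.9 in muscle and 24.5 in skin, against 38.2 in spleen, with C1qa at 0 in bone and muscle. The 6 B cell genes summed to 44.5 to 70.3 CPM in bone, 17.7 to 49.9 in heart, 5.81 to 11 in muscle and 10.7 to 13.1 in skin, against 38.9 to 109 in spleen. The 6 fibroblast genes summed to at most 48 in bone, 8.89 in heart, 45 in muscle and 107 in skin, against 11.8 in spleen. Larger sums came from the 5 endothelial genes, at 112 to 127 CPM in bone, 77.8 to 98.4 in heart, 114 to 133 in muscle and 59.2 to 64.4 in skin, against 129 to 164 in spleen. Of that list Tie1 and Emcn were at 0 in bone and spleen and Emcn in heart, while no gene was at 0 in muscle or skin. The 6 dendritic cell genes summed to 41.1 to 89.5 CPM in bone, 17.1 to 34.1 in heart, 36.4 to 60.4 in muscle and 33.9 to 53.4 in skin, against 4.3 to 95.1 in spleen. The 4 mast cell genes summed to 8.11 to 22.2 CPM over the tissues, against at most 2.15 in spleen. The 1 gene of that list tested rose in all 4 tissues, while Mcpt4 and Cma1 were at 0 in each of the 4. The 5 skeletal muscle genes summed to at most 74.6 CPM in muscle and 7.7 in the other groups. The 6 neutrophil genes summed to at most 28.6 in heart, 27.2 in spleen and 3.74 in the other tissues. The 5 CD8 T and NK cell genes summed to 12.7 to 39.7 over all groups. These sums, each over several genes, are as large as or larger than the levels of Dusp16, Spry1 and Spred1 in part of the libraries. The part of these cells in the results was not tested.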

How the data were processed

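The deposited values are raw read counts per gene. Per the submitters' processing notes, the authors used STAR, featureCounts and limma with GRCm38, and the sources used here do not give versions, annotation, strand setting or handling of molecular identifiers. Libraries started from sorted Tregs. The 2 tables (46078 genes each) share identical spleen columns. The names of 2 bone columns show the group, but no sample record ties either to a replicate number, so they are called b and c. Replicates of the injured tissues are pools of separate mice, while for spleen nothing says so, and p-values measure the spread between these libraries.

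Genes were filtered by filterByExpr, scaled by TMM and tested with edgeR 4.0.16 (R 4.3.3) as group plus naming style, in 15 libraries for bone, muscle, skin and spleen, 9 for heart and spleen, and 18 for heart against other tissues, with FDR 0.05. SE is the log2 fold change over the square root of F. Gene positions come from GENCODE M21 and promoter windows from RefSeq. The scripts were tested on simulated data. Alternatives used limma 3.58.1 (voom) and DESeq2 1.42.0. The 10 members, the lists and the rule for naming genes (in other lists, up to 3 highest and 3 lowest mean log2 fold changes among genes called in at least 2 tissues, and 3 most similar genes per member) were chosen with earlier results of these data known.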

Additional observations from a re-analysis of the deposited data

Results flagged for a closer look

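The values below stand out because 2 injured tissues differed from each other by a direct test of the difference (edgeR, adjusted p under 0.05). Those of Dusp4 are log2 fold changes of 1.09 for muscle over bone, 1.69 for skin over bone and 1.18 for heart over bone; without the naming style the value for skin over bone was 0.91 (adjusted p = 0.0114). Those of Dusp5 are 0.93 for muscle over bone, 0.97 for skin over bone and 1.08 for heart over bone. Without the naming style they were 0.93, 0.21 and 0.91 (adjusted p = 0.0834, 0.65 and 0.0596). Dusp1 was 1.70 for skin over bone, 1.27 for skin over muscle and -1.01 for heart over skin. Without the naming style these values were 0.80, 0.37 and -0.54 (adjusted p = 0.0677, 0.53 and 0.323). Dusp10 was 1.64 for heart over bone and 1.12 for heart over skin. Dusp16 was 1.58 for skin over bone and 1.58 for skin over muscle. Spry1 was -1.04 for skin over bone, a call lost under 16 of 25 alternatives, and 1.74 for heart over skin. No spleen library stood apart from the other 5 by Dixon's criterion for any of the 10 genes, a check that chance alone trips in about 1 in 20 groups.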

How the results depend on the processing

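Of 39 tests of a member against spleen, 30 passed, of which 19 passed under every alternative run and 11 were lost under at least 1; of the 9 that did not pass, 2 passed under at least 1. The 1 sign change of a test that passed was Dusp2 in skin against spleen, 0.18 without spleen replicates 1 and 2, against -1.01 with them. Sign changes where neither value passed were not counted. Between tissues, where 0.452 to 8.11% of all genes passed, 15 of 60 tests of a member passed. Of these, 2 passed under every alternative (Dusp16 in skin against bone and Spry1 in heart against skin), and 11 others passed under at least 1. These totals include the replicate block, in which bone is an arm of 1 library and comparisons with spleen rest on spleen replicates 1 to 3. Without that fit for the comparisons with bone, 20 of the 30 calls against spleen and 6 of the 15 between tissues passed under every alternative, the 4 more between tissues being Dusp4 in muscle, skin and heart against bone and Dusp10 in heart against bone. In these totals the replicate block still counts for comparisons without bone. The cause of the losses was not tested. At these depths the members other than Spry2 had from 225 counts per group upward, so depth limits Spry2 most.

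Without the naming style, 432 genes passed in muscle against bone (1 member higher), 2814 in skin against bone (2 members higher, 2 lower), 749 in skin against muscle (1 higher, 1 lower) and 742 in heart against skin (0 members lower). Same-numbered libraries of muscle, skin, heart and spleen correlated at -0.129 to 0.098 in their deviations over 18 pairs. Bone and spleen replicates 4 to 6 were not part of this check, and libraries of different numbers were not compared. Whether any numbering pairs the samples is therefore not settled. With a replicate block in place of the style, 1420 genes passed in bone against spleen (0 members lower), 31 in muscle against bone (0 higher), 835 in skin against bone (1 higher, 0 lower), 1132 in skin against muscle (1 higher, 2 lower), 7 in heart against bone (0 higher) and 826 in heart against skin (0 lower), and 1 member was lower in muscle and 0 in heart against spleen. Over all genes 4624 passed in muscle against spleen and 2582 in heart against spleen in that fit, where 3984 and 3043 passed with the style. Bone libraries b and c, tied to no replicate number, were left out of the fit with the replicate block. Bone is therefore 1 library there, assumed to vary like the other groups, and its lower counts follow in part from having fewer samples. Only spleen has numbers 4 to 6, so comparisons with spleen rest on its replicates 1 to 3, all of Endo style. Muscle, of Tregs style, was thus set against Endo-style spleen. Dusp1 in muscle against spleen was 1.53 there, against 0.58 with the style in the model. Under DESeq2, 1270 genes passed in muscle against bone, 427 in skin against muscle, 1630 in heart against bone, 211 in heart against muscle (1 member higher) and 672 in heart against skin. Under limma-voom, 843 passed in skin against bone (0 members lower) and 75 in skin against muscle (1 higher), and 2 members were lower in skin against spleen. With no filter on low counts, 1191 passed in muscle against bone, 618 in skin against muscle, 380 in heart against muscle (1 member higher) and 909 in heart against skin, and 0 members were lower in skin against bone, as with RLE scaling and without small and ribosomal RNA genes. Without spleen replicates 1 and 2, 2548 passed in skin against spleen (2 members lower), 705 in skin against bone (0 lower), 126 in skin against muscle and 638 in heart against skin (1 higher), with 4 members higher in muscle against bone and 1 lower in heart against spleen. In 1 fit of all 18 libraries, 493 passed in muscle against bone (1 higher) and 115 in skin against muscle (1 higher).

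Leaving out 1 library at a time gave 1784 to 2604 genes in bone against spleen (3 to 3 members higher, 1 to 3 lower), 3257 to 4257 in muscle (4 to 5, 2 to 4), 3368 to 4543 in skin (5 to 5, 2 to 4) and 2241 to 2894 in heart (4 to 5, 1 to 3). Between tissues it gave 256 to 1040 in muscle against bone (1 to 3 higher, 0 to 0 lower), 777 to 1705 in skin against bone (3 to 5, 0 to 2), 101 to 528 in skin against muscle (1 to 2, 0 to 0), 429 to 1200 in heart against bone (2 to 4, 0 to 0), 27 to 104 in heart against muscle (0 to 1, 0 to 0) and 205 to 522 in heart against skin (1 to 3, 1 to 1).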
